A study of Mus musculus with 18 samples.

Results

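The liver transcripts of 21-day-old mouse offspring whose dams ate a high protein (HP) diet during lactation were compared with those of offspring of control dams. The comparison rests on 6 of the 18 arrays of the study, chosen by their titles: 3 of the group named HP lactation day 21 and 3 of the group named control day 21. All mice were of DUK, an outbred line crossed from several outbred and inbred stocks. Control dams ate a diet with 20% protein by weight through pregnancy and lactation. HP lactation dams ate the control diet in pregnancy and an isoenergetic diet with 40% protein in lactation, and so differed from the control dams in the suckling period alone. A further group, HP pregnancy day 21, had the 40% diet in pregnancy and the control diet in lactation, and the same 3 groups were measured again at day 150. Each array carried RNA pooled from several livers. The labels differ on how many livers entered a pool and do not say whether pools of a group shared animals. The p-values below describe the spread between pools and not between animals or litters. The labels give a light cycle of equal light and dark phases, but neither the hour of sampling nor the sex of the pups.

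At this age the pup liver passes from milk to solid food, and much of its adult pattern is still being laid down. The pulsatile release of growth hormone later drives a set of male-biased genes through the factor STAT5b, while fetal genes such as Afp are shut off. The liver also keeps a circadian clock, in which the CLOCK and BMAL1 proteins drive Per and Cry genes whose products then repress them, and feeding helps to set its phase. Dietary amino acids in excess are broken down in the liver, and their nitrogen leaves as urea.

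Values are array signals on a linear scale, as the authors deposited them, and changes are differences of log2 signal, HP lactation minus control. Changes were tested with limma across 11018 genes, with Benjamini-Hochberg adjustment and a threshold of 0.05. The standard error (SE) comes from the spread within all 6 groups of 3 arrays. The labelled tissue was checked by its defining genes: 9 of 9 hepatocyte markers were above the signal filter, and their summed signal was 229139 to 250194 in the control arrays and 175878 to 219487 in the HP lactation arrays. Xist, the RNA that silences an X chromosome in females, read 7343 in control replicate 2 and 47.2 to 85 in the other 8 arrays of day 21. The Y-linked gene Eif2s3y read 1431 in that array and 2003 to 2894 in the other 8. The medians of the sex-biased lists, the change of Mup3 and the calls of single genes are therefore also given without that array. Other values of sex-biased genes against control include it. The 99th percentile of the signal averaged 15882 ± 1358 (SD, n = 3) in the HP lactation arrays and 18510 ± 1009 (SD, n = 3) in the control arrays, and lists of very abundant genes are read beside that difference.

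Of the 11018 genes, 19 passed the threshold (0.172%), 5 with higher signal (0.0454%) and 14 with lower signal (0.127%) in the HP lactation arrays. At an unadjusted p under 0.05 there were 1578 genes (14.3%), 742 higher (6.73%) and 836 lower (7.59%). The balance of directions depended on the scale, with 3 higher and 21 lower after quantile normalization and 11 higher and 14 lower with 50 added to each signal. The 14 genes that fell include the urinary pheromone carrier Mup3, the lipid elongase Elovl3, the bile acid and hormone importer Slco1a1 and the enzymes Ces1f, Cyp2d13 and Cyp4v3. The 5 that rose were Bex1, Ifrd1, Abcc4, Acsl4 and Ppat. In each of the 19 genes the 3 HP lactation arrays lay wholly on one side of the 3 control arrays, and in 10 the change was over 2-fold. Of all genes 7.43% lay wholly above and 8.71% wholly below control. The separation of the 19 largely follows from their choice by p in the same arrays. For 8 of the 19 genes the array holds further probe sets above the signal filter. All 10 of those had a change of the same sign, and 1 passed the threshold.

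**Figure D1:**
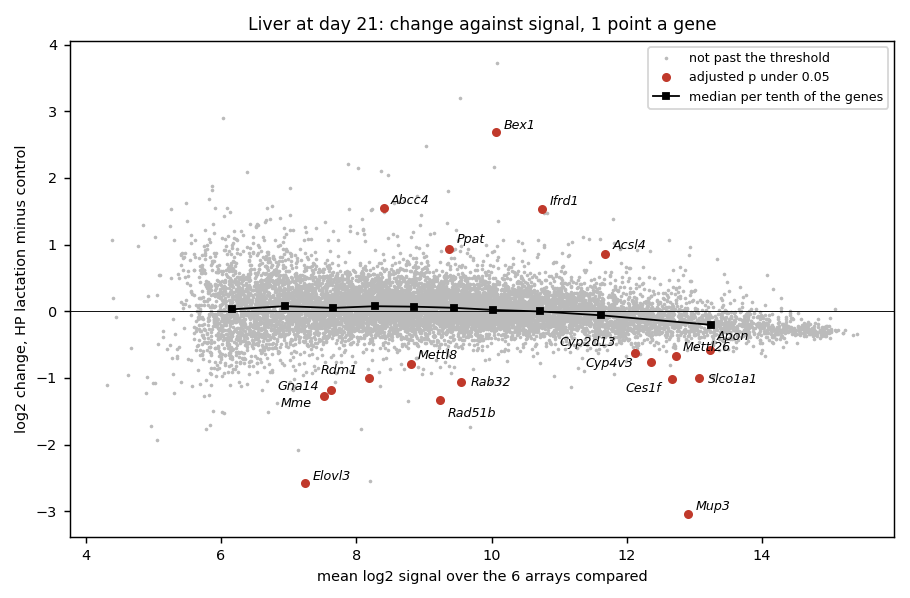
Log2 change of each of the 11018 genes, HP lactation minus control at day 21 (vertical axis), against the mean log2 signal over the 6 arrays compared (horizontal axis), with the 19 genes past the threshold in red and the median of each signal decile as black squares. Mup3 lies lowest at -3.04 and Bex1 highest among the red points at 2.69, and the line of medians reaches -0.21 in the top decile.

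Mup3 encodes a major urinary protein, one of the small carriers that male mice make in the liver in bulk and excrete with bound pheromones. Its signal was 24295, 17111 and 25716 in the control arrays and 1309, 3744 and 3913 in the HP lactation arrays, so the highest HP lactation array stood well under the lowest control array. The group mean was 8.23-fold lower (log2 change -3.04, SE 0.29, limma adjusted p = 4.39e-05). Mup genes are nearly identical in sequence, and this probe set can also read other members of the family. Of the other Mup genes tested, Mup10, chosen after its values were seen, had signals of 756, 724 and 1461 in control and 437, 1114 and 289.8 in HP lactation arrays (log2 change -0.83, adjusted p = 0.309), and Mup5 had a log2 change of 1.06 (adjusted p = 0.325). The groups of both overlapped.

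Elovl3 lengthens saturated and monounsaturated very long chain fatty acids and is a male-biased gene of the adult liver. It read 616, 302 and 272 in control and 67, 90.5 and 39 in HP lactation arrays, 5.98-fold lower (log2 change -2.58, SE 0.41, adjusted p = 0.00937). Both groups were far below the level that the gene reaches later, 11865, 20959 and 17074 in the control arrays of day 150. Without control replicate 1, its highest array, the log2 change was -2.21 and the adjusted p 0.0764. Slco1a1 carries bile acids, steroid conjugates and thyroid hormones into hepatocytes. It read 12842, 11246 and 12161 in control against 4946, 7496 and 5972 in HP lactation arrays, 1.99-fold lower (SE of the log2 change 0.14, adjusted p = 0.00352). A second probe set for Slco1a1 gave a log2 change of -1.05 and passed too.

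The enzymes that fell act on lipids, esters and foreign compounds. Ces1f, a carboxylesterase that cleaves ester bonds in lipids and drugs, read 10026, 10268 and 7798 in control and 5122, 5151 and 3633 in HP lactation arrays (log2 change -1.02, SE 0.15, adjusted p = 0.00352). It was the 1 called gene of 10 carboxylesterases tested, and 9 of the 10 had a negative change. Cyp2d13, a cytochrome P450 of the drug-metabolising Cyp2d cluster, read 5808, 5697 and 5127 against 3627, 3372 and 3729, 1.55-fold lower. Cyp4v3 hydroxylates the end carbon of fatty acids. Its signals were 7289.7, 6352 and 6826 in control and 4402, 4266 and 3511 in HP lactation arrays, 1.69-fold lower. The secreted apolipoprotein gene Apon fell by less, from 11105, 12066 and 11948 to 6751, 8927 and 8056 (log2 change -0.57, SE 0.11, adjusted p = 0.0426), and lies in the top signal decile, whose genes had a median change of -0.21. Ces1f, Cyp2d13 and Cyp4v3 belong to families of close relatives, and their probe sets may in part read a neighbouring member.

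The other genes that fell have more varied roles. Rab32 is a small GTPase of lysosome-related organelles and mitochondria, and read 1206, 1093 and 966 in control against 588, 495 and 480.1 in HP lactation arrays (log2 change -1.06, SE 0.14, adjusted p = 0.00127). Gna14, a G protein alpha subunit of the Gq class, read 319.6, 273 and 304 against 84.2, 173 and 157. Mme encodes neprilysin, a surface peptidase that degrades small peptide hormones, and read 422, 236 and 233 against 91, 124 and 146. Both genes were low in every HP lactation array, 2.26-fold and 2.42-fold below control on average. Mettl8, an RNA methyltransferase of mitochondria, read 576, 603 and 589 against 288, 342 and 399.9, and Mettl26, a predicted methyltransferase, read 8367, 10489 and 7109 against 5185, 5749.5 and 5157. A pair of genes tied to homologous recombination also fell. Rad51b, a gene of the repair of DNA breaks, read 791, 1289 and 877 against 266, 438 and 475 (log2 change -1.34, adjusted p = 0.0291). Rdm1, whose protein resembles the RAD52 family, read 386, 484 and 372 against 178, 214 and 231 (SE of the log2 change 0.17, adjusted p = 0.0171).

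Of the genes that rose, Bex1 had the largest change. It encodes a small signalling adaptor that is expressed in brain and in the fetal liver. Bex1 read 371, 428 and 481 in control and 4477, 2525 and 1802 in HP lactation arrays, 6.44-fold higher (log2 change 2.69, SE 0.50, adjusted p = 0.029). Ifrd1, an immediate early gene whose product acts as a transcriptional co-regulator, read 820.1, 934 and 1355 in control and 3526, 3324 and 2168 in HP lactation arrays, 2.9-fold higher (SE of the log2 change 0.20, adjusted p = 0.00127). Abcc4 exports bile acids, conjugates and cyclic nucleotides across the sinusoidal membrane, out of the cell into blood, and is a female-biased gene of the mouse liver. Abcc4 read 169, 264 and 174 against 551, 686 and 515, 2.93-fold higher (adjusted p = 0.0103). Acsl4 activates long chain polyunsaturated fatty acids such as arachidonate, and read 2523, 1980.1 and 2917 against 4759.8, 4088 and 4475, 1.81-fold higher (adjusted p = 0.0109). Ppat catalyses the committed first step of purine synthesis and read 556, 444 and 449 against 1093, 914 and 781, 1.92-fold higher (adjusted p = 0.0466). Together, Slco1a1 and Abcc4 are a basolateral importer and exporter with overlapping substrates, and their signals moved in opposite directions.

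**Figure D2:**
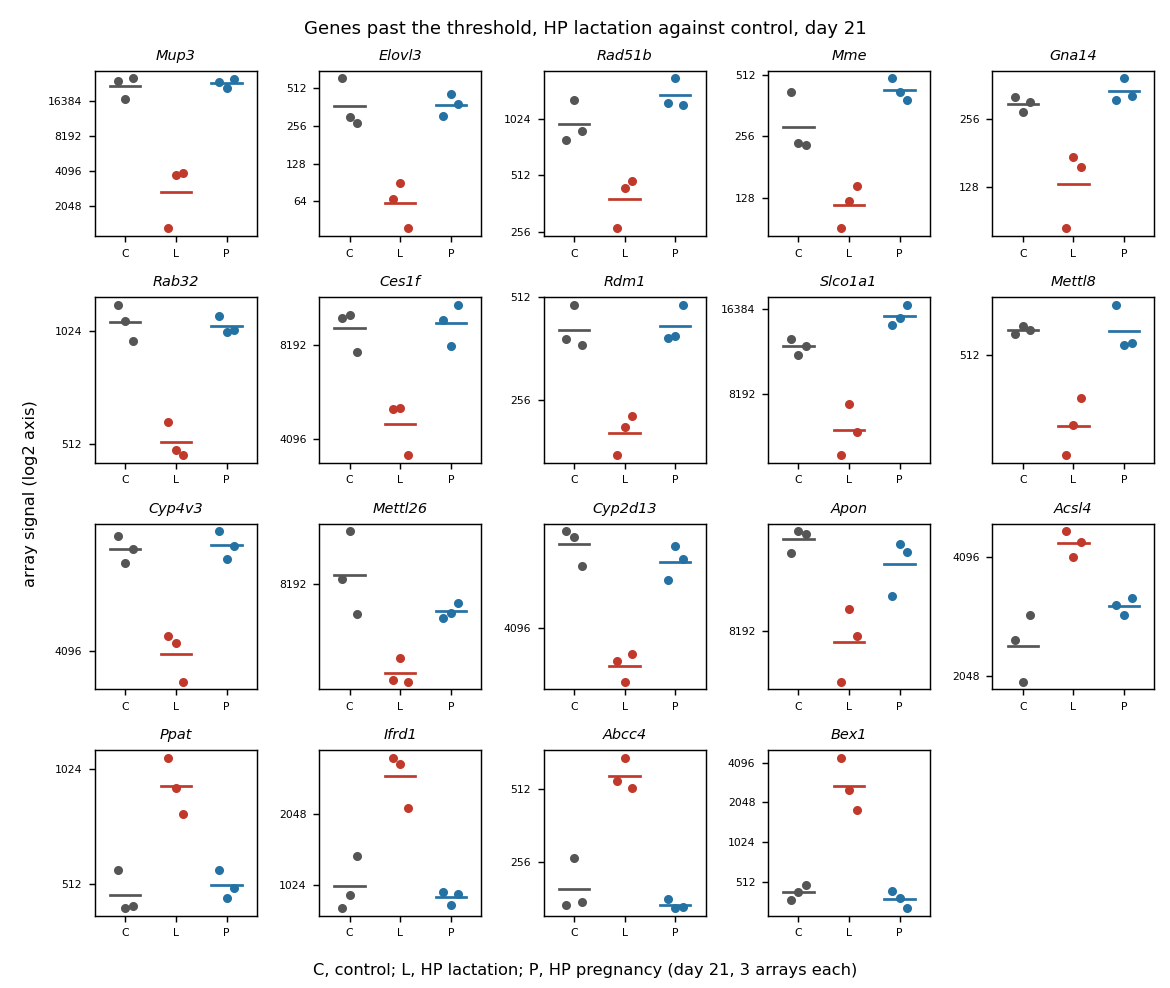
Array signal on a log2 axis of the 19 genes past the threshold in the 9 arrays of day 21, ordered from the most negative to the most positive change; each point is 1 array, in replicate order, and each bar the geometric mean of 3. In all 19 panels the HP lactation points lie apart from both the control and the HP pregnancy points, which lie on the same side of them.

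The calls differ in how far they rest on single arrays. With each of the 6 compared arrays left out in turn, Mup3, Rab32, Ifrd1, Ces1f and Slco1a1 passed every time. Without control replicate 1 these were the 5 of the 19 that still passed, of 6 genes called in all, and the other 14 had adjusted p from 0.056 (Acsl4) to 0.156 (Mme). Cyp2d13, Cyp4v3, Elovl3 and Abcc4 were lost there alone, with adjusted p up to 0.0764. Without control replicate 2, or without HP lactation replicate 1, 9 of the 19 passed and 10 genes were called in all. The 10 lost in each case were Acsl4, Gna14, Mme, Bex1, Rdm1, Apon, Mettl8, Mettl26, Rad51b and Ppat, with adjusted p up to 0.232. Without control replicate 3, Mettl8, Apon and Ppat were lost (63 called, adjusted p up to 0.072), and without HP lactation replicate 2, Mettl8 and Ppat (57 called, up to 0.0537). Without HP lactation replicate 3 all 19 passed, of 79 called. The sign of all 19 was the same in each of these fits. When the 6 arrays were fitted alone, so that the spread came from both groups only, 8 genes passed and 4 of them were among the 19, namely Mup3, Bex1, Abcc4 and Elovl3.

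Promoter letters were searched for 6 short motifs on both strands, in the 250 bases before each RefSeq start of the GRCm38.p6 assembly. Of the 19 genes, 15 had such a window. The E-box CACGTG, which CLOCK and BMAL1 can bind, occurred in windows of 2 of them, Abcc4 and Cyp4v3, and STAT5 letters (TTCNNNGAA) in a window of 1, Mme. Among all 32851 windows of this length 6.02% held the E-box and 7.02% the STAT5 letters. These shares are per window, whereas the counts are per gene, and a gene such as Abcc4 or Mme can have several windows. The D-box TTANGTAA (2.06%), the ATF4 letters TGATGCAA (0.791%), the cAMP response letters TGACGTCA (1.55%) and the sterol response letters TCACNCCAC (1.05%) occurred in none of the 15 genes. The 3 windows with a match are shown 5′ to 3′ on the gene's strand, with the matched letters in capitals, because they belong to called genes, 1 that rose and 2 that fell. None of the matches overlaps another motif. The Abcc4 window (chr14:118706220-118706469, minus strand) holds its E-box from 205 bases before the start, the Cyp4v3 window (chr8:45333164-45333413, minus strand) from 171 and the Mme window (chr3:63294961-63295210, plus strand) its STAT5 letters from 166.
Abcc4: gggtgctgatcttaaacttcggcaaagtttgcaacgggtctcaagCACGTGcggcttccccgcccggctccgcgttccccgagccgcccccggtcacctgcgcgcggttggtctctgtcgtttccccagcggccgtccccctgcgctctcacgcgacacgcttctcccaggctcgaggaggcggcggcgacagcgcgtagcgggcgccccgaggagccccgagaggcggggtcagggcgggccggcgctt
Cyp4v3: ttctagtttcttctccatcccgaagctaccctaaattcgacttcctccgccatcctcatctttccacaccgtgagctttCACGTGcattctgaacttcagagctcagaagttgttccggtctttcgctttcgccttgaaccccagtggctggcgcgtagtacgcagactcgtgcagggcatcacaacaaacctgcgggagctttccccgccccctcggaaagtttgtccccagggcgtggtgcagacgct
Mme: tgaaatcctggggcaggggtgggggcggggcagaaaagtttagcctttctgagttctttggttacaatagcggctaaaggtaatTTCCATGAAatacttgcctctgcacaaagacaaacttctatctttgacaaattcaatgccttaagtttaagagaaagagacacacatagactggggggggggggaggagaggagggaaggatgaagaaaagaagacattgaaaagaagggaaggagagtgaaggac
A match describes the letters of a window and shows no binding.

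Mup3, Elovl3 and Slco1a1 are members of a list of male-biased liver genes, and the rest of that list lay mostly below control too. Of 25 members tested, 3 fell and 0 rose, against 0.127% and 0.0454% of all genes. A negative change was found in 20 of them (49.4% of all genes). The median log2 change was -0.52 against 0.00 over all genes tested. In 14 of the 25 every HP lactation array read below every control array, a state found in 8.71% of all genes. All 9 members of its steroid and drug metabolism group had a negative change, and none passed. Hsd3b5, which acts on steroids in the adult male liver, read 579, 275 and 771 in control and 73.8, 275 and 155 in HP lactation arrays (log2 change -1.76, adjusted p = 0.104), and the highest HP lactation array equalled the lowest control array. Cyp4a12a, a male-specific fatty acid hydroxylase, read 580.1, 710.4 and 814 against 259, 527 and 150.0 (adjusted p = 0.0856). Cyp7b1, which hydroxylates oxysterols and steroids, read 1190, 1079 and 1436 against 647, 958 and 656 (adjusted p = 0.0728), and the dehydrogenase gene Sdr9c7 read 1865, 1394 and 1227 against 446, 745 and 1029 (adjusted p = 0.0599). The last 3 did not overlap between groups, and all 4 missed the threshold. Of the 5 members with a positive change, Mup5 had the largest.

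The list of female-biased genes leaned the other way. Of 34 tested, 1 rose (Abcc4) and 0 fell, against 0.0454% and 0.127% of all genes. A positive change was found in 25 (50.6% over all genes). The median log2 change was 0.41, or 0.27 with the 3′/5′ ratio of Gapdh as a covariate. The largest values were widely spread. Sult1e1, the estrogen sulfotransferase, read 146, 184 and 993 in control and 2756, 11154 and 1997 in HP lactation arrays (log2 change 3.72, SE 0.96, adjusted p = 0.111). Cyp3a16, a P450 of the perinatal liver, read 797, 252 and 73.3 against 2296, 1082 and 4648 (log2 change 3.20, SE 0.86, adjusted p = 0.12). Trim24, a co-regulator that restrains retinoid signalling, read 716, 602 and 764 against 1452, 1079 and 905 (adjusted p = 0.111). With the opposite sign, Sult3a1, another female-biased sulfotransferase, read 778, 615 and 748 in control and 168, 156 and 69.4 in HP lactation arrays (log2 change -2.54, adjusted p = 0.153). Without control replicate 2, the array with Xist signal, the median was -0.49 for the male-biased and 0.42 for the female-biased list, and Mup3 had a log2 change of -3.22.

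Of the growth hormone and IGF axis, 0 of 24 genes passed. Ghr, the growth hormone receptor, read 19098, 13169 and 13687 in control and 7873, 11027 and 12778 in HP lactation arrays (log2 change -0.54, adjusted p = 0.15). Igf1, the circulating growth factor that it induces, read 18248, 16375 and 14702 against 11331, 12651 and 11540.3 (log2 change -0.47, adjusted p = 0.153). These were the 2 of the 24 genes that lay wholly below control, against 8.71% of all genes, and 1 lay wholly above (7.43%). Ghr and Igf1 are both very abundant, and the top signal decile had a median change of -0.21. Igfals, which holds IGF1 in its serum complex, had a log2 change of -0.45 (adjusted p = 0.267).

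Dusk clock genes, whose transcripts crest around the end of the light phase, had the highest median of the whole lists with at least 5 genes tested. Of 15 tested, 0 passed, 14 had a positive change, and the median log2 change was 0.86. In 9 of the 15 every HP lactation array lay above every control array, against 7.43% of all genes, and 9 had an unadjusted p under 0.05, where 6.73% of all genes were higher at that level. Per3, a member of the clock's repressing arm, read 75, 297 and 178 in control and 736, 459 and 942 in HP lactation arrays (log2 change 2.11, SE 0.56, adjusted p = 0.12). Its relative Per1 read 182, 139.9 and 232 against 489, 477 and 318 (log2 change 1.22, adjusted p = 0.104), and the cryptochrome gene Cry2 319.9, 336 and 361 against 1023, 611 and 461 (adjusted p = 0.164). The protease gene Usp2, a rhythmic gene of the liver, read 202, 255 and 344 against 696, 954 and 967 (adjusted p = 0.282), and the D-box activator genes Tef and Dbp had log2 changes of 0.75 and 1.48. In each of these 6 genes all HP lactation arrays were above all control arrays, in Dbp by a narrow margin (signals 487, 2384 and 1085 against 4500.3, 2386 and 2553). Per2 overlapped between the groups, with 134, 102 and 98.6 against 281, 119.9 and 383. Leaving out single arrays moved the median of the list between 0.65 and 0.90.

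Genes of the opposite, Bmal1 phase were split in sign. Of 6 tested, 0 passed, 3 had a positive change, and the median was -0.05, from -0.32 to 0.24 with single arrays left out. Arntl, which encodes BMAL1, read 1098, 780.5 and 786 in control and 731, 484 and 783 in HP lactation arrays, and Clock 1359, 646 and 947 against 865, 819 and 732 (log2 change -0.23, and 0.04 without control replicate 1). The groups of both overlapped. Rora, an activator of Arntl, read 2649, 1766 and 3053 against 3482, 3148 and 3430.3, with no overlap (adjusted p = 0.198). At day 150, in other arrays, the median log2 difference between HP lactation and control was 0.84 for the dusk list and -0.75 for the Bmal1 list. The hour of sampling is not in the labels, and its part in these differences was not tested.

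Of the 15 dusk genes, 12 had a promoter window. The E-box occurred in windows of 2 of them, Per1 and Tef, and the D-box, to which the proteins of Dbp and Tef bind, in the window of 1, Per3. STAT5 letters occurred in windows of 3 and the cAMP response letters in a window of 1. The windows of Per1 and Per3 are shown because these genes had the smallest p of the list. The Per1 window (chr11:69098699-69098948, plus strand) has an E-box from 166 bases before the start, and the Per3 window (chr4:151044666-151044915, minus strand) has a first D-box from 205 bases before it and another closer to the start.
Per1: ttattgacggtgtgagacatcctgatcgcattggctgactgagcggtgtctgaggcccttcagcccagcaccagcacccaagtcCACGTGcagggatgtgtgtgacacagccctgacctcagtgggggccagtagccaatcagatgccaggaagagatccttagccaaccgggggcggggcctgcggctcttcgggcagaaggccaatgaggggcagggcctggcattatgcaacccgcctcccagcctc
Per3: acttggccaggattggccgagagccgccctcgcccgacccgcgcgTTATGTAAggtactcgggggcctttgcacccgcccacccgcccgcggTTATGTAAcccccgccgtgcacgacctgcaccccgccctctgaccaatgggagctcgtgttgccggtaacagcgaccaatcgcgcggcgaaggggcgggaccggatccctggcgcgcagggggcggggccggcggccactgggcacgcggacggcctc
The capitals mark the E-box in the first and the D-boxes in the second window.

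**Figure D3:**
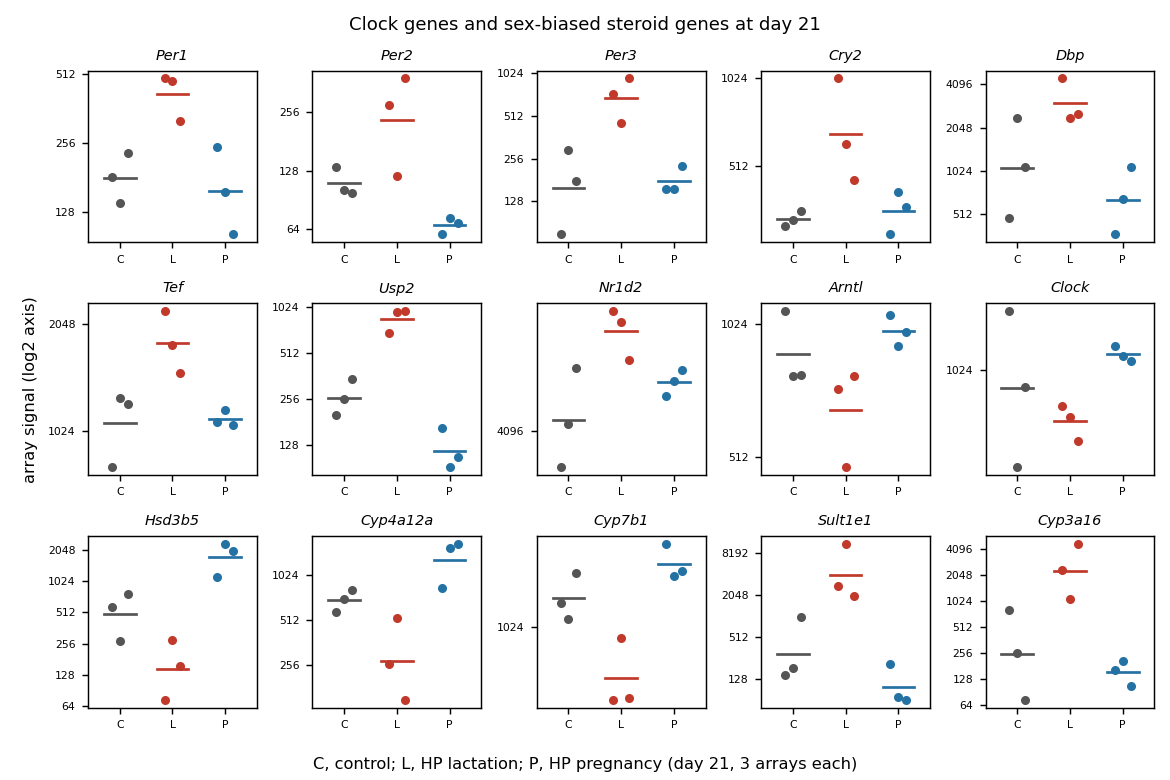
Array signal on a log2 axis of 10 clock genes (upper and middle rows) and 5 sex-biased steroid and drug genes (lower row) in the 9 arrays of day 21; each point is 1 array, in replicate order, and each bar the geometric mean of 3. Per1, Per3, Cry2, Dbp, Tef, Usp2 and Nr1d2 have all HP lactation points above all control points, Arntl and Clock overlap, and the male-biased Hsd3b5, Cyp4a12a and Cyp7b1 run opposite to the female-biased Sult1e1 and Cyp3a16.

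Among immediate early genes, which respond to signals without new protein synthesis, 1 of 19 rose (Ifrd1) and 16 had a positive change, with a median of 0.41. The members were uneven between arrays. Nr4a1, an orphan nuclear receptor induced by glucagon and stress, read 122, 49.4 and 215 in control and 1374, 722 and 128 in HP lactation arrays, so 1 HP lactation array lay within the control range. Fos, a subunit of AP-1, read 162, 144 and 198 against 276, 207 and 1462, high in a different array than Nr4a1. The median was 0.24 after quantile normalization and 0.19 with the 3′/5′ ratio of Gapdh, a sign of RNA quality, as a covariate. Without HP lactation replicate 1 the median of the list was 0.06. Sik1, a kinase induced by cAMP, read 181, 103 and 292 against 894, 545 and 272 (adjusted p = 0.153), and Noct, a rhythmic phosphatase gene known as nocturnin, 423, 180.1 and 559.6 against 1097, 1435 and 1165 (adjusted p = 0.138).

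Bex1 was the 1 called gene of the fetal list, in which 14 of 23 genes had a positive change and the median was 0.13, and 0.03 after quantile normalization. Gpc3, a proteoglycan of the fetal liver, read 232, 143 and 219.6 in control and 442, 299 and 492 in HP lactation arrays (adjusted p = 0.324). Afp, the fetal counterpart of albumin, read 527, 466 and 504 against 478, 630.3 and 1439, with 1 high HP lactation array and no separation of the groups (adjusted p = 0.36). Of 15 imprinted growth genes 0 passed and 13 had a positive change (50.6% over all genes), with a median of 0.17. After quantile normalization 11 of the 15 were positive (40.8% over all genes), with a median of 0.15. Grb10, an adaptor that dampens insulin and IGF1 receptor signalling, read 848, 755 and 699 against 1691, 1024 and 1694 (adjusted p = 0.148), and Peg3, a paternally expressed zinc finger gene, 1748, 1411 and 1938 against 5466, 2505 and 2024 (adjusted p = 0.204). Of 9 genes of DNA methylation 0 passed. The de novo methyltransferase gene Dnmt3a read 467, 318 and 466 in control and 682, 521 and 564 in HP lactation arrays (adjusted p = 0.306), and Tet2, which oxidises methylcytosine, 464, 358 and 541 against 607, 572 and 572 (adjusted p = 0.269).

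Of 47 cell cycle genes 0 passed and 37 had a positive change (50.6% over all genes). Their median of 0.45 fell to 0.15 without HP lactation replicate 3. After quantile normalization 35 were positive, with a median of 0.33. The proliferation marker Mki67 read 106, 19.4 and 31.8 in control and 131, 90.1 and 434 in HP lactation arrays, and Mcm5, a helicase subunit of DNA replication, 276, 112 and 119.5 against 282, 171 and 1106. Replicate 3 was the highest HP lactation array in both. Ccne2, the cyclin of entry into S phase, read 146, 56.1 and 114 against 214, 184 and 327, with no overlap (adjusted p = 0.138). Of 15 genes of homologous recombination, 2 fell (Rad51b and Rdm1) and 0 rose, against 0.127% and 0.0454% of all genes. In the same list Brca1 read 76.5, 39.2 and 81.8 in control and 131, 255 and 196 in HP lactation arrays (log2 change 1.58, adjusted p = 0.148), opposite in sign to the called pair.

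Several genes just missed the threshold. Atp10d, a lipid flippase gene, read 504, 423 and 623 in control and 1032, 1019.9 and 868 in HP lactation arrays (log2 change 0.93, adjusted p = 0.0525). Slc39a14, a zinc and manganese importer, read 1656, 1303 and 1769 against 3440.4, 2529 and 2707 (adjusted p = 0.0669). Nop58, a core protein of the particles that guide ribosomal RNA methylation, read 1029.7, 1189 and 1537 against 2783, 1768 and 2052 (adjusted p = 0.0673). The RNA helicase gene Ddx21 read 457, 414 and 538 against 1047, 668 and 682 (adjusted p = 0.0728), and Nolc1, which encodes a nucleolar phosphoprotein, 276, 388 and 493 against 1044, 643 and 616 (adjusted p = 0.0776). In all 3, named here for their small p, the groups did not overlap, and 7.43% of all genes lay wholly above control. Slc25a4, the ADP/ATP carrier of heart and muscle mitochondria, read 2635, 2542 and 2396 against 6623, 4213 and 4890.4 (log2 change 1.03, adjusted p = 0.104). On the lower side, Pigr, the receptor that carries immunoglobulin A across cells, read 5762, 3936 and 5541 in control and 2626, 3111 and 2143 in HP lactation arrays (adjusted p = 0.0669), and Cadps2, a gene of vesicle release, 375, 276 and 345 against 208, 160.4 and 221 (adjusted p = 0.0599).

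Of the gene lists tied to nitrogen and amino acids, that of purine synthesis alone held a called gene, Ppat, which passed in 1 of 6 leave-outs. Over all genes 0.172% passed. Of 16 genes of the urea cycle and ammonia disposal 0 passed, with a median of -0.10, and 0.01 after quantile normalization. Cps1, which fixes ammonia in the first step of the cycle, read 32388, 27256 and 31905 in control and 28267, 32803 and 23715 in HP lactation arrays (log2 change -0.12, SE 0.15, adjusted p = 0.771), with overlapping ranges, and a log2 change of 0.19 after quantile normalization. Ass1, which joins citrulline and aspartate, read 516, 266 and 745 against 1495, 1094 and 798 (log2 change 1.23, SE 0.54, adjusted p = 0.314), with its lowest HP lactation array just above the highest control array. These signals lie far below those of Cps1 and below the median log2 signal of 14.9 of the hepatocyte markers, a list that holds Ass1. How well this probe set reads Ass1 was not tested. Of 45 genes of amino acid breakdown 0 passed and 41 had a negative change (median -0.19, and -0.09 after quantile normalization). Kynu, an enzyme of tryptophan breakdown, read 4218, 3428 and 4131 in control and 2357, 3001 and 2967 in HP lactation arrays (adjusted p = 0.171).

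The response to amino acid shortage, run by ATF4, had 0 of 25 genes past the threshold and a median of 0.12. Asns, the asparagine synthetase that this pathway induces, read 628, 956 and 682 in control and 1082, 936 and 1499 in HP lactation arrays (adjusted p = 0.527). Slc3a2, the heavy chain of amino acid exchangers, read 2455, 3366 and 2771 against 5001, 3794 and 4173, with no overlap (adjusted p = 0.24). Of 23 amino acid transporters 0 passed (median 0.10). In purine synthesis, which draws on glutamine, glycine and aspartate, Ppat was the 1 of 21 that rose, and the median was 0.04, and -0.05 without HP lactation replicate 3. Gmps, which makes GMP later in that pathway, read 2504, 2254 and 2911 in control and 3557, 3216 and 3024 in HP lactation arrays (adjusted p = 0.287). In glucose output, Pck1, the control point of gluconeogenesis, read 20528, 17795 and 21885 against 20352, 23937 and 13522, with overlapping ranges (log2 change -0.09, adjusted p = 0.871, and 0.11 after quantile normalization).

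Of 18 cholesterol synthesis genes 0 passed and 17 had a positive change, with a median of 0.54, and 0.55 in the 11 genes of the squalene and sterol arm. Sqle, the squalene epoxidase, read 1339.7, 1474 and 750.1 in control and 2431, 2248 and 2532 in HP lactation arrays (log2 change 1.07, SE 0.34, adjusted p = 0.18). Idi1, which isomerises isopentenyl diphosphate, read 7459.6, 6803 and 3837 against 10576, 11780 and 8958 (adjusted p = 0.148), and the lanosterol synthase gene Lss 1183, 1349 and 701 against 2125, 1699 and 2122 (adjusted p = 0.173). In all 3 the groups did not overlap and control replicate 3 was the lowest array. Of the 18 genes 6 lay wholly above control, against 7.43% of all genes. Without that array the median of the list was 0.31. Cyp7a1, the rate-limiting enzyme of bile acid synthesis, read 1938, 1586 and 2244 in control and 1568, 7034 and 5932 in HP lactation arrays (log2 change 1.08, adjusted p = 0.285), with 1 of 3 HP lactation arrays below every control array. In the list of lipogenesis Elovl3 was the 1 of 27 that fell and 0 rose. The median of that list was 0.13, and -0.14 without HP lactation replicate 3, so 1 array set its sign. In that of fatty acid oxidation Acsl4 was the 1 of 44 that rose and 0 fell (median -0.24, and 0.00 after quantile normalization).

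All 11 glucuronosyl transferase genes tested, which couple bilirubin, steroids and drugs to glucuronic acid, had a negative change, and 0 passed. Their median was -0.47, and -0.37 after quantile normalization, when 10 of 11 were negative. Ugt2b35 read 18814, 19037 and 22193 in control and 11556, 16176 and 12694 in HP lactation arrays (log2 change -0.58, adjusted p = 0.0728). Ugt3a1, which uses other sugars, read 716, 1037 and 902 against 501, 626 and 389 (log2 change -0.82, adjusted p = 0.0813), with no overlap in either gene. Of all genes 8.71% lay wholly below control. The Ugt2b genes are close relatives, and their probe sets may share signal. Of 31 genes of bile acid synthesis and transport, Abcc4 rose, Slco1a1 fell and 23 had a negative change (median -0.17, and -0.02 after quantile normalization). Slco1a4, a related importer, read 3125, 2491 and 4632 in control and 6629, 7762 and 4766 in HP lactation arrays (adjusted p = 0.188). Of 26 Cyp2 genes on a list drawn up without Cyp2d13, 0 passed and 19 had a negative change (median -0.25, and -0.07 after quantile normalization). Cyp2d9, a male-biased relative of Cyp2d13, read 19089, 19085 and 19773 against 14329, 14945 and 12666 (adjusted p = 0.15).

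Vitamin A and interferon genes had no member past the threshold. Of 20 retinoid genes 13 had a negative change, with a median of -0.28, and -0.05 after quantile normalization. Adh4, an alcohol dehydrogenase that can oxidise retinol, read 5091, 5209 and 5515 in control and 3012, 4419 and 2307 in HP lactation arrays, and Aldh1a1, which makes retinoic acid, 25135, 23589 and 24492 against 14896, 21688 and 14673 (adjusted p = 0.111 and 0.111). Neither overlapped between the groups. Of the 20 retinoid genes 8 lay wholly below control and 1 wholly above, against 8.71% and 7.43% of all genes. Of 27 interferon response genes 16 had a negative change (median -0.16, and -0.26 after quantile normalization). Iigp1, an interferon-induced GTPase of cell defence, read 22828, 18505 and 19633 in control and 12023, 14311 and 12936 in HP lactation arrays (adjusted p = 0.111), and the nucleic acid sensor gene Zbp1 63.2, 67.2 and 42 against 5.6, 15.1 and 59.5 (adjusted p = 0.204).

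Lists of very abundant genes moved together with the upper end of the signal range. In the top signal decile of the genes 85.9% had a negative change and the median was -0.21. After quantile normalization, which gives all arrays the same distribution, it was -0.03. The median over all genes was then -0.05, with 59.2% negative. Normalized medians of lists are to be read beside that value. Of 70 subunits of oxidative phosphorylation, 69 had a negative change (median -0.28, and -0.06 after quantile normalization). The same pair of medians was -0.27 and -0.01 for 33 ribosomal proteins, -0.26 and -0.06 for 41 complement and coagulation genes, and -0.29 and -0.03 for 43 acute phase and secreted proteins. In these 4 lists Apon alone passed, and Apon missed the threshold narrowly after quantile normalization (adjusted p = 0.0539). The medians of the male-biased, female-biased, dusk clock and cholesterol lists were -0.59, 0.34, 0.73 and 0.60 after quantile normalization, each with the sign it had before.

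**Figure D4:**
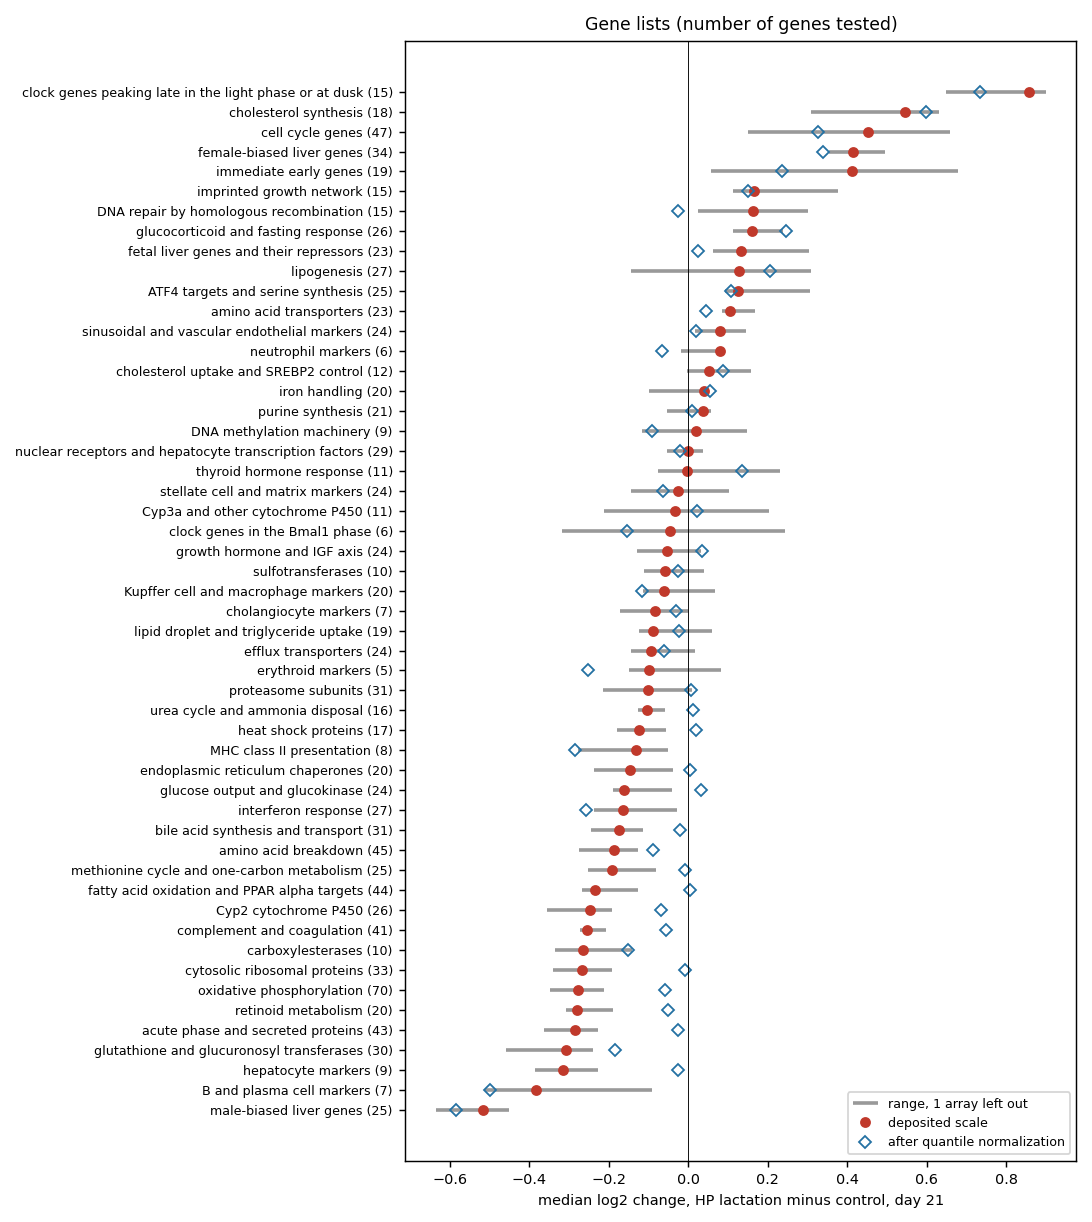
Median log2 change, HP lactation minus control at day 21, of each gene list with at least 5 genes tested (number in brackets), on the deposited scale (red circles, with the range over 6 fits that leave out 1 array in grey) and after quantile normalization (blue diamonds). The dusk clock list stands highest at 0.86 and the male-biased list lowest at -0.52 on the deposited scale, while the lists of abundant genes near -0.28 move close to 0 after normalization.

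None of the marker lists for other cell types held a called gene. All sums cover the tested markers alone. The summed signal of the 20 macrophage markers tested, of 21 on the array, was 33507 to 37391 in control and 27749 to 36656 in HP lactation arrays. That of stellate cell and matrix markers was 50893 to 68685 against 47189 to 61022. The sums of endothelial, cholangiocyte and neutrophil markers overlapped between the groups in the same way. Erythroid markers summed to 1573 to 1997 in control and 2373 to 2568 in HP lactation arrays, with no overlap, although the median change of the 5 tested members was -0.10. Markers of pancreas and gut, 3 of 11 tested, summed to 11603 to 13584 in control and 8102 to 10273 in HP lactation arrays. T and NK cell markers summed to 496 to 636 against 358 to 499.8, with 3 of 16 tested, and B and plasma cell markers to 4285 to 5527 against 4492 to 6927. In bulk liver, fewer cells of a type and less RNA per cell cannot be told apart, and the part of these differences in the results was not tested.

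The HP lactation arrays were then compared with the HP pregnancy arrays of the same age, a group with 3 arrays of its own. This comparison asked how the liver differed when the 40% diet fell in the suckling period instead of gestation. There 141 genes passed (1.28%), 42 higher (0.381%) and 99 lower (0.899%). The HP lactation arrays are common to this comparison and to that with control, so the values are given side by side and not as a repeat. The log2 difference of Mup3 was -3.12 here (adjusted p = 2.86e-05) and -3.04 against control, that of Bex1 2.86 (adjusted p = 0.00745) and 2.69, and that of Ifrd1 1.69 (adjusted p = 2.44e-04) and 1.54. Acsl4 (0.53), Mettl26 (-0.42) and Apon (-0.44) did not pass here. HP pregnancy signals of Mup3 were 23654, 21185 and 25360.1, of Bex1 433, 382 and 322 and of Ifrd1 955, 843 and 937, where the control means were 22029.6, 424 and 1013. Against control, HP pregnancy had 0 genes past the limma threshold at day 21, with 1100 at an unadjusted p under 0.05. The count of 141 was 33 without HP lactation replicate 1, HP pregnancy replicate 2 or HP pregnancy replicate 3, 67 without HP pregnancy replicate 1 and 361 without HP lactation replicate 3.

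Of the 25 male-biased genes 12 fell below HP pregnancy and 0 rose, against 0.899% and 0.381% of all genes. With single arrays left out 6 to 12 fell, 6 without HP lactation replicate 1, HP pregnancy replicate 2 or HP pregnancy replicate 3. Hsd3b5 read 1135, 2349 and 1987 in the HP pregnancy arrays, above every control and HP lactation array (log2 difference -3.57, adjusted p = 2.44e-04). Cyp4a12a read 839.9, 1556 and 1665 (-2.24, adjusted p = 9.58e-04). Mup10, which is not on the list and was chosen after its values were seen, read 1946, 2587 and 3205 (-2.28, adjusted p = 0.00331). In these 3 genes the control mean lay between those of both HP groups, and each passed in all 6 leave-outs. The complement genes C8a and C8b, both male-biased, also passed, both with a log2 difference of -0.83 and an adjusted p that reached 0.139 (C8a, without HP lactation replicate 1) and 0.109 (C8b, without the same array). Nox4, an oxidase that makes hydrogen peroxide, passed in every leave-out (-1.91, adjusted p = 9.58e-04).

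Among the 42 genes higher than in HP pregnancy (0.381% of all genes) were 4 of the 34 female-biased genes, Abcc4, Sult1e1, Cyp3a16 and Trim24. Sult1e1 read 212, 71.8 and 65.2 in HP pregnancy arrays, a log2 difference of 5.31 (SE 0.96, adjusted p = 0.0103). Without HP pregnancy replicate 2 or 3 Abcc4 alone of the 4 passed, and the adjusted p of Sult1e1 reached 0.0589. Of the dusk clock genes 3 of 15 passed: Per1 with 246, 157 and 102 in HP pregnancy arrays (log2 difference 1.41, adjusted p = 0.0253), Per2 with 60.2, 73.2 and 69 (1.80, adjusted p = 0.03) and Usp2 with 164, 91.4 and 107 (2.88, adjusted p = 0.0476). Over all genes 0.381% passed as higher here. None of the 3 dusk genes passed without HP lactation replicate 1 or HP pregnancy replicate 2 or 3, and their adjusted p reached 0.164. Of the 6 leave-outs Per1 passed in 2, Per2 in 1 and Usp2 in 0. Noct read 606, 143 and 128 and Sik1 181, 105 and 79.5, and both passed (adjusted p = 0.0214 and 0.0225), but each kept the call in 2 of 6 leave-outs, and their highest adjusted p were 0.111 and 0.147. Of genes named above, Nop58 and Nolc1 passed with log2 differences of 0.97 and 1.17, as did Nop56, whose product is a partner of that of Nop58, with 0.99, and Pparg, the lipid storage regulator, with 1.18. Nop58 and Nop56 passed in 3 of 6 leave-outs and Nolc1 and Pparg in 2, and the adjusted p reached 0.0669, 0.0767, 0.0996 and 0.144 for Nop58, Nop56, Nolc1 and Pparg. Idh3a, a subunit of the citrate cycle dehydrogenase, read 2163, 2755 and 2724 against 4629, 3928 and 3533 (0.66, adjusted p = 0.0175). It passed in 4 of 6 leave-outs, with adjusted p up to 0.109.

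The same diet contrast at day 150 was set against that at day 21 by testing the difference between both responses. At day 150, 0 of the 19 genes passed between HP lactation and control (lowest adjusted p 0.479), where 1 of all genes did (0.00908%) and 851 had an unadjusted p under 0.05. The difference between the days, which uses the day 21 arrays again, passed in 1 of them. That gene was Mup3, with signals of 14259, 17098 and 19034 in control and 23580, 15440.4 and 14423 in HP lactation arrays at day 150 (log2 change 0.06; difference between days 3.10, SE 0.42, adjusted p = 0.00605). Bex1 was low in both groups at day 150, at 56.2, 49.3 and 51.9 in control and 9.8, 58 and 59.1 in HP lactation arrays, so close to or under the signal filter of 57.5 that the size of a log2 difference is poorly set, and the difference between days did not pass (adjusted p = 0.286). The largest day 150 change among the 19 was that of Elovl3, which read 11865, 20959 and 17074 in control and 7118, 3544 and 11358 in HP lactation arrays (log2 change -1.30, adjusted p = 0.479). Over all genes 2 passed for the difference between days (0.0182%), the other being Mycn. In limma with the 12 arrays of these 4 groups alone, or with the 3′/5′ ratio of Gapdh as a covariate, the count was 0, with 449 and 314 genes at an unadjusted p under 0.05. The adjusted p of Mup3 was 0.0995 and 0.117 in these fits.

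Mycn, a proto-oncogene of the MYC family, was not called at day 21, with signals of 138, 257 and 83.5 in control and 59.4, 151 and 93.4 in HP lactation arrays. At day 150 it read 4.3, 5.8 and 13 in control and 67.4, 74.3 and 114 in HP lactation arrays (difference between days 4.20, SE 0.66, adjusted p = 0.0274). Its control signals at day 150 lie far under the signal filter of 57.5, where the size of a log2 change is poorly set. With 50 added to each signal the difference was 1.65 (adjusted p = 0.296). It missed the threshold in 9 of 12 leave-outs, with adjusted p up to 0.151 without control day 21 replicate 2. Of the HP lactation arrays of day 150, replicate 4 had an Xist signal of 11644.

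Since the pup liver matures strongly after weaning, the 19 genes and the wider response were also set beside the change with age, measured in arrays that the diet contrast does not use. This reading was chosen after values were seen. The days also differed in the 3′/5′ ratio of Gapdh. Its mean was 0.90 in HP pregnancy and 0.94 in control arrays at day 21, and 1.75 and 1.48 at day 150. Changes with age and with RNA quality therefore cannot be told apart here. In the HP pregnancy arrays, 1333 genes rose (12.1%) and 1269 fell (11.5%) from day 21 to day 150. Of the 14 genes lower after HP lactation, 5 rose with age (Ces1f, Cyp4v3, Elovl3, Mme and Rdm1) and 1 fell (Rad51b). Of the 5 higher genes 1 fell with age (Bex1) and 0 rose. Cyp4v3, for instance, read 7461, 6499.6 and 6938 at day 21 and 17122, 18129 and 18172 at day 150 in those arrays. Over all 1333 genes that rose with age the median diet change was -0.03, with 55.4% negative against 49.4% of all genes, and among the 283 that rose over 2-fold the median was -0.10, with 60.4% negative. The 1269 genes that fell with age were no mirror of this, with a median of -0.01 and 51.1% negative, while among the 330 that fell over 2-fold the median was 0.06, with 57.6% positive. After quantile normalization 59.2% of all genes were negative, 62.9% of those that rose with age and 56.2% of those that fell.

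In the control arrays 1069 genes rose (9.70%) and 890 fell (8.08%) with age, and the HP lactation minus HP pregnancy difference at day 21 uses none of those arrays. Its median was -0.20 in the genes that rose with age, 77.5% of which were negative against 51.8% of all genes, and 0.10 in the genes that fell, 67.3% of which were positive. Sult1e1, Cyp3a16 and Bex1 are examples of the latter, and Hsd3b5, Cyp4a12a and Elovl3 of the former. All of these but Bex1 are sex-biased genes. The control arrays of day 21 include replicate 2, with its Xist signal, and the change with age was not fitted without it. Genes are not independent replicates, and these shares describe the 2 sets of arrays without a test.

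**Figure D5:**
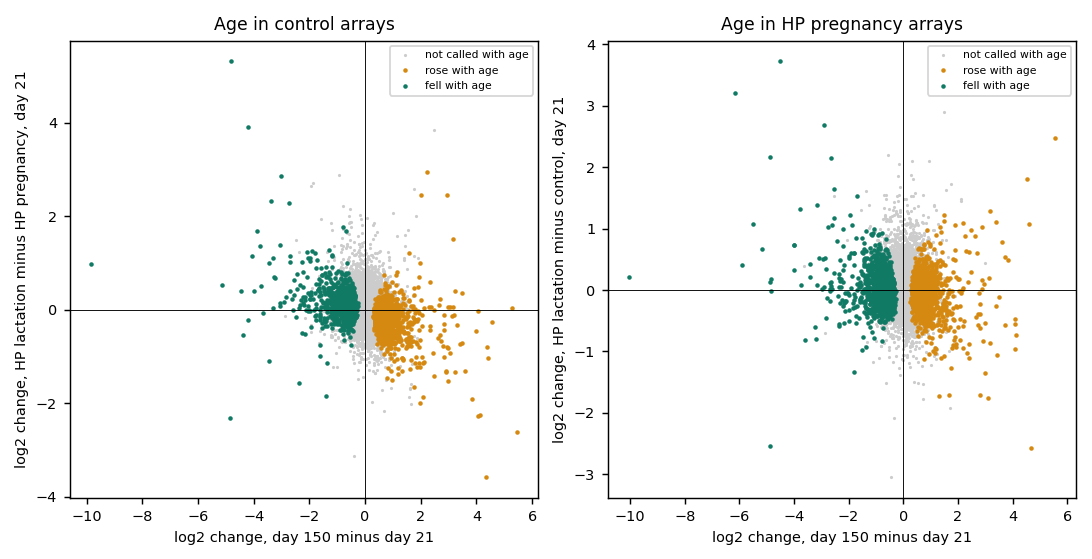
Left, log2 difference between HP lactation and HP pregnancy at day 21 (vertical) against log2 change from day 21 to day 150 in control arrays (horizontal); right, log2 change between HP lactation and control at day 21 against the change with age in HP pregnancy arrays. Each point is 1 gene, orange where it rose and green where it fell with age; in the left panel 77.5% of the orange points lie below 0, and in the right panel 55.4%.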

How the data were processed

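The series has 6 groups of 3 liver RNA pools, each pool on 1 array of the type Affymetrix Mouse Genome 430 2.0, 18 in all. The values are array signal intensities that the authors deposited, made with MAS5 in GCOS 1.4 per the submitters' processing notes, on a linear scale with a trimmed mean (2% off each end) of 500.0 in every array. No further scaling was applied. Detection calls and scan dates are not in the sources used here. Signals were put on the log2 scale with a pseudocount of 0. Of 45101 probe sets, 34945 named 1 gene symbol. Sets with a mean log2 signal under 5.85 (a signal of 57.5) were left out, and the set with the highest mean stood for a gene, which left 11018 genes.

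R 4.3.3 and limma 3.58.1 (lmFit and contrasts.fit, then eBayes with a variance trend) fitted the means of all groups at once, with two-sided tests, 12 residual degrees of freedom plus 6.47 from the prior, and Benjamini-Hochberg adjustment in each comparison. The median SE of a log2 change was 0.19, and 0.27 for a difference between days; the number of arrays limits the precision. On simulated data for this comparison, with 11018 genes and 200 changed, the code recovered 22.2% of log2 changes of 0.5, 68.4% of 1, 85.6% of 1.5 and 93.8% of 2, with 4.66% false calls. The simulated noise was normal and independent between genes, with no shift shared within an array. These shares therefore check the code and do not give the error rate of the real arrays.

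The comparison, members and lists were chosen with earlier results of these data known. All called genes could be named, with up to 15 further genes in each direction by p, up to 15 and 10 for the comparisons with HP pregnancy and between days, up to 8 members of each role group, and the members of the sex-biased, hormone, clock, imprinted, fetal, urea, ATF4 and methylation lists; Mup10 lies outside that rule and was chosen after its values were seen. The alternatives were other filters, normalizations, pseudocounts, probe set choices, variance models, sets of arrays, a replicate block, a Gapdh 3′/5′ covariate and single arrays left out. Promoter sequences are RefSeq's (GRCm38.p6), matched by gene ID. Plots used Python 3.11.15 and matplotlib 3.10.9.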

Additional observations from a re-analysis of the deposited data

Results flagged for a closer look

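The response to HP lactation, HP lactation minus control, differed between the days in 2 of the 11018 genes by a test of that difference in limma. For Mup3 the response at day 150 minus that at day 21 was 3.10 on the log2 scale (SE 0.42, adjusted p = 0.00605), from -3.04 at day 21 to 0.06 at day 150. At day 21 all 3 HP lactation arrays lay below all 3 control arrays, and at day 150 the groups overlapped. The difference passed in all 12 fits that left out 1 array, with values from 2.58 to 3.37. For Mycn the same difference was 4.20 (SE 0.66, adjusted p = 0.0274). The groups overlapped at day 21, and at day 150 all 3 HP lactation arrays were above all 3 control arrays. Its day 150 control signals of 4.3, 5.8 and 13 lie far under the signal filter of 57.5, so the size of the difference is poorly set, and with 50 added to each signal it was 1.65 (adjusted p = 0.296). It passed in 3 of the 12 leave-outs, with values from 3.78 to 4.66. Mup3 signal may include other Mup transcripts, and the array with Xist signal in the HP lactation group of day 150, replicate 4, gave a value of 2.88 for Mup3 and 4.35 for Mycn when left out (adjusted p = 0.031 and 0.0543).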

How the results depend on the processing

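Of the 19 genes called against control, 14 passed without a signal filter, 16 after quantile normalization, 18 with 50 added and 16 with array weights, where 15, 24, 25 and 17 genes were called in all. The count was 11 without the variance trend, 8 on the compared arrays alone, 11 with the Gapdh 3′/5′ ratio as a covariate, 56 at an adjusted p under 0.10, and 6 to 79 with 1 array left out. The 141 genes against HP pregnancy became 54 without the trend, 360 with array weights, 34 on the compared arrays alone, 54 on the 9 arrays of day 21, 318 at 0.10 and 33 to 361 with 1 array left out. The 2 differences between days became 1 under the 70th percentile filter, 1 with array weights, 0 on the 12 arrays of the 4 groups, 0 with the Gapdh covariate and 1 to 3 with 1 array left out. Fewer arrays entered the leave-outs and the fits on part of the arrays; for the other shifts the cause was not tested. With the replicate number as a block 6 genes were called against control, 4 of them among the 19, and 61 against HP pregnancy. The labels do not say that the numbers pair the arrays. Deviations of same-numbered arrays from their group means correlated at -0.09, 0.03 and -0.11. With 3 arrays a group these values cannot settle whether the arrays were paired. No paired analysis was possible for the difference between days because HP lactation at day 150 carries the numbers 4 to 6. Small changes that had not passed turned sign: after quantile normalization Cps1 to 0.19 and Pck1 to 0.11, and with single arrays left out Cps1, from -0.23 to 0.0012, Pck1, from -0.27 to 0.14, and Clock, from -0.50 to 0.039. Of 605 list medians under these settings, 61 moved by more than the spread between arrays. Of 1518 values of single genes, for 96 named genes, 1357 kept their sign and their side of the threshold. Of the others 107 no longer passed, 49 newly passed and 5 turned sign. All 107 fall on the 19 called genes, the only ones that could cease to pass, with 15 or 16 values each. Detection calls are not in the sources used here, so for dim genes such as Mycn and Brca1 the distance from background is unknown.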

Other observations

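Lists tied to stress and protein handling held no called gene. Of 17 heat shock genes 12 had a negative change (median -0.12), of 31 proteasome subunits 23 (median -0.10) and of 20 endoplasmic reticulum chaperones 16 (median -0.15). After quantile normalization these leans were gone, with 8, 15 and 10 negative and medians of 0.02, 0.01 and 0.00. On that scale 59.2% of all genes were negative, with a median of -0.05. Of 26 genes of the glucocorticoid and fasting response 18 had a positive change (median 0.16). Sgk1, a kinase induced by glucocorticoids, read 5179, 4021 and 8393 in control and 21646, 9989 and 5984 in HP lactation arrays (adjusted p = 0.291), and Zbtb16, a zinc finger gene that the same hormones induce, 742, 519 and 961 against 1859.6, 1402 and 689.5 (adjusted p = 0.338). Of 20 iron genes 0 passed. Tfrc, the receptor that takes up transferrin, read 1208, 864 and 1464 against 1955, 1762 and 2005 (adjusted p = 0.23), and Slc40a1, the iron exporter ferroportin, 11861, 11973 and 10666 against 7078, 9903 and 10247 (adjusted p = 0.264).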
